A study of Homo sapiens with 12 samples.

Results

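The 10 genes described here make serine, glycine, asparagine and folate-bound one-carbon units, or carry amino acids into the cell. They were taken by symbol: PHGDH, PSAT1 and PSPH of serine synthesis, SHMT2 and MTHFD2 of the mitochondrial one-carbon pathway, the asparagine synthetase gene ASNS, and the transporter genes SLC7A5, SLC3A2, SLC7A1 and SLC7A11. All 10 were found, with 1 entry each, in each of the 3 expression tables of the series, which hold 16489, 18215 and 55744 gene symbols and 56364 different symbols in all. All 10 passed the filter of 1 FPKM in every comparison.

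RNA-seq was done on 2 cell lines of triple-negative breast cancer (TNBC), HCC70 and MDA-MB468, at passages 6 to 9, with 1 library per condition and 12 libraries in all. HCC70 cells were kept for 24 h in vehicle, in the RORγ antagonist XY018 at 1.25 or 2.5 μM, in the statin atorvastatin (ATV) at 1.25 μM, or in XY018 and ATV at 1.25 μM each. The same 5 treatments were given to MDA-MB468, and a second RORγ antagonist, GSK805, was tried in this line at 2.5 μM with a vehicle and a table of its own. RORγ is a nuclear receptor and transcription factor, and the series set out to follow what its antagonists do to metabolic genes in TNBC. The labels name no genetic change in either line. The medium of MDA-MB468 is given differently in the sources, as RPMI with insulin in the labels and as DMEM in the study's methods, and either differs from the RPMI of HCC70, so line and medium cannot be told apart. Each level is in FPKM, the fragments of a gene scaled to transcript length and to the mapped fragments of the library. Each change is a log2 ratio of treated to vehicle FPKM within one table, with 0.1 added to both values. A gene was counted as higher or lower when it changed by 1.5-fold or more. With 1 library per condition no difference within a line has a replicate check and none was tested, and a fit over both lines with line as a block was not run. Where an interval is given in parentheses it is the 95% exact Clopper-Pearson interval of the ratio of estimated fragments. It covers counting error and leaves out the variation between cultures.

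Serine is built from the glycolytic intermediate 3-phosphoglycerate, by PHGDH, PSAT1 and PSPH in turn. SHMT2 splits serine into glycine and a one-carbon unit in mitochondria, and MTHFD2 oxidizes that unit for use in nucleotide synthesis. When amino acids run short or the endoplasmic reticulum is stressed, the transcription factor ATF4 is translated more efficiently and activates many of these enzymes together with amino acid transporters. ATF4 is controlled mainly by translation, so its mRNA is an incomplete measure of its activity.

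ATF4 acts with C/EBP proteins at composite elements with the core TGATGNAAN, and the element upstream of ASNS is the textbook case. RefSeq windows from 250 bases before to 50 bases after the transcript start (GRCh38.p14) were on hand for 7 of the 10 genes, in 10 windows. PSPH, SHMT2 and SLC7A11 were not among them. The core, searched on both strands, was in 3 of the 10 windows, 1 each for 3 of the 7 genes, and in 3.61% of all 35116 windows. The genes were chosen as ATF4-driven, so the difference in share is not an independent result. The stretches below are the 3 matches, with the core in capitals, and for comparison 120 bases before the start of PSAT1, the gene whose response differed most between the lines, with the motif CCAAT in capitals. The ASNS stretch runs from position -78 to -50 relative to the start (chr7:97872458-97872486, minus strand). The SLC3A2 stretch (chr11:62881724-62881748, plus strand, with the core on the opposite strand) and the SLC7A1 stretch (chr13:29595661-29595688, minus strand) lie within the first 50 transcribed bases. The PSAT1 stretch is chr9:78297005-78297124, plus strand.
ASNS: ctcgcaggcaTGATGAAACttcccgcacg
SLC3A2: gtgcaggactcCTTACATCAgctcc
SLC7A1: gcactgcTGATGAAACctggcgccggaa
PSAT1: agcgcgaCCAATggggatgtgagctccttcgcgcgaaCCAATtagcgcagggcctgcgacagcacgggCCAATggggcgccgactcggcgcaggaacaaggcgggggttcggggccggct
In the ASNS window the core began 68 bases before the start, and SLC7A1 held the same 9 letters from base 8 after it. The PSAT1 window held CCAAT at -113, -83 and -52 and no match to the ATF4 core. CCAAT, on either strand, was in 5 of the 10 windows, for 5 of the 7 genes, and in 34.6% of all windows. The nuclear receptor half-site AGGTCA was in 2 of the 10 windows, both of ASNS, and in 13.8% of all windows. The E-box CACGTG was in 1 of them, that of SLC7A5, and in 7.26% of all windows. None of these motifs overlapped another in the stretches shown, and a match of letters does not show that a factor was bound.

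The label of the cells was compared with marker genes. All 8 basal-like and epithelial markers (EGFR, KRT5, KRT14, KRT17, KRT8, KRT18, EPCAM and CDH1) were at 1 FPKM or above in every library except KRT14, at 0.45 FPKM in MDA-MB468 with 2.5 μM XY018. The oestrogen receptor gene ESR1 was between 0.37 and 0.67 FPKM in the HCC70 libraries and in the MDA-MB468 libraries of the XY018/ATV experiment. In the GSK805 pair ESR1 was at 1.77 FPKM with vehicle and 5.67 with GSK805. ERBB2, the HER2 gene, was measured in every library, at 25.3 to 57.7 FPKM. Of 7 markers of fibroblasts and leukocytes, CD3E, DCN, COL1A2 and PDGFRB stayed at or below 0.65 FPKM and PTPRC at or below 1.06 where they were listed. COL1A1 was at 3.84 to 17.2 FPKM and CD68 at 3.83 to 98.8. The depth, estimated from the spacing of low FPKM values, was 8980000 to 9870000 fragments in the 5 HCC70 libraries, 17500000 to 18980000 in the 5 of MDA-MB468 with XY018, ATV or their vehicle, and 8460000 and 8610000 in the GSK805 pair.

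With vehicle, PHGDH had the highest FPKM value of the 10 transcripts in the tables of both lines, and SLC7A11 the lowest. The lead of PHGDH was too small to rank it first, as set out below. In HCC70 the order was PHGDH at 197 FPKM, then SLC7A5 at 150, MTHFD2 at 104, SLC3A2 at 96.3, PSAT1 at 79.5, SHMT2 at 73.6, ASNS at 64.5, SLC7A1 at 41.5, PSPH at 15.7 and SLC7A11 at 6.57. In the MDA-MB468 vehicle of the XY018/ATV experiment the order was PHGDH at 453 FPKM, PSPH at 219, SLC7A5 at 212, SHMT2 at 211, SLC3A2 at 152, PSAT1 at 151, ASNS at 104, MTHFD2 at 93.8, SLC7A1 at 33.0 and SLC7A11 at 3.51. PSPH, which removes the phosphate in the last step of serine synthesis, differed most between the lines, at 13.9 times its HCC70 level in MDA-MB468. Reads of its pseudogene PSPHP1, described below, may be part of this level. These levels come from tables normalized separately. The vehicle libraries of MDA-MB468 in its 2 tables give a scale for such differences, since they differed by 1.01-fold for PHGDH and by up to 2.34-fold for SLC3A2. Neighbours in the order closer than this, such as PHGDH and SLC7A5 in HCC70 or PHGDH and PSPH in MDA-MB468, cannot be ranked.

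**Figure D1:**
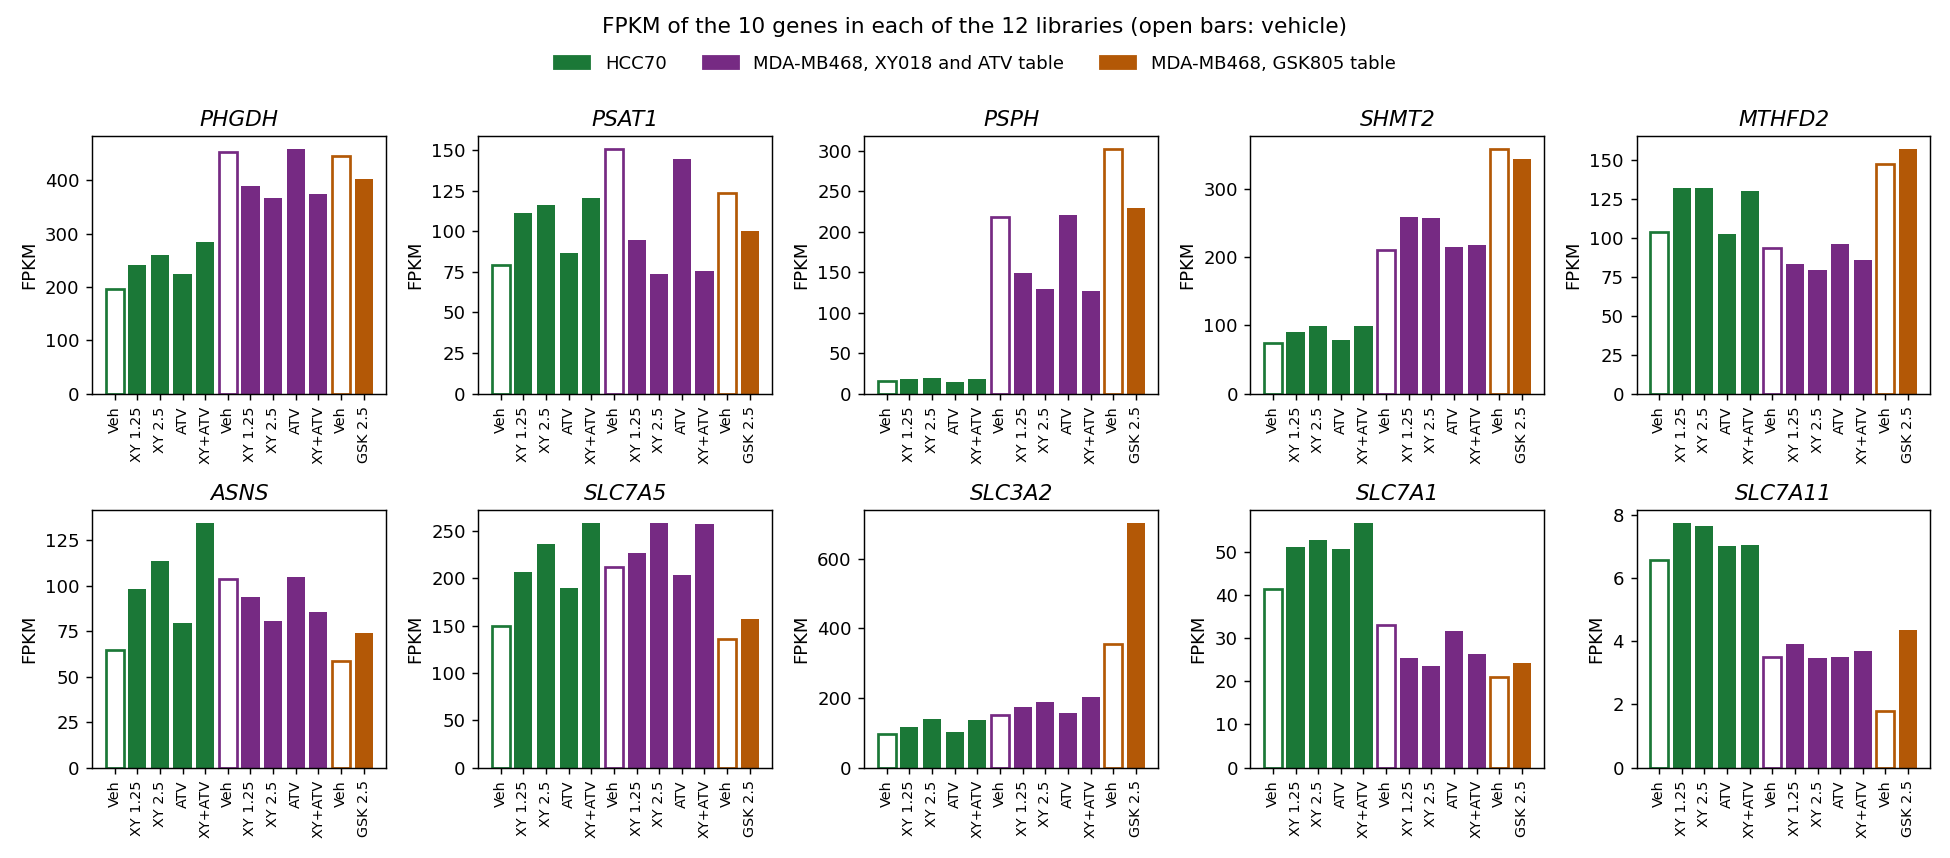
FPKM of each gene (y axis, linear from 0, separate scale per gene) in the 12 libraries (x axis; Veh, vehicle; XY, XY018 in μM; GSK, GSK805 in μM), 1 bar per library with open bars for vehicle. All 10 genes were above vehicle in the HCC70 libraries with XY018, PSAT1 and PSPH were below it in the MDA-MB468 libraries with XY018, and SLC3A2 was at 704 FPKM with GSK805.

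In HCC70, the whole group was slightly above vehicle with XY018. At 1.25 μM all 10 genes were above the vehicle, where 47.1% of all 11738 genes compared were, and the counting interval lay above 0 for 9 of them. The median log2 ratio was 0.30 against -0.01 for all genes. By the 1.5-fold rule 1 gene was higher and 0 were lower, where 1.93% of all genes were higher and 2.64% lower. At 2.5 μM all 10 were again above the same vehicle library, where 44.99% of all genes were, with a median of 0.42 against -0.02 for all genes. Here 2 genes were higher and 0 lower, with 2.62% of all genes higher and 3.26% lower. The lowest of the 10 stood at percentile 86.7 of all genes and the highest at 98.7. Most genes of the group thus changed by less than 1.5-fold, and all of them in one direction. All comparisons of HCC70 share 1 vehicle library, so a low value there would raise every ratio.

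ASNS, which makes asparagine from aspartate and glutamine (Entrez gene 440; chromosome 7, 97480989 to 97501854, minus strand, GRCh37), changed most in HCC70. Its level was 64.5 FPKM with vehicle, 98.3 with 1.25 μM XY018, 114 with 2.5 μM XY018, 79.6 with ATV and 135 with both compounds. All 4 treated libraries were above the vehicle, and the library with both compounds was the highest. The log2 ratios were 0.61 (0.51 to 0.70), 0.82 (0.72 to 0.91), 0.30 (0.20 to 0.40) and 1.06 (0.97 to 1.15), and the last corresponds to 2.09-fold. In MDA-MB468 ASNS went the other way, from 104 FPKM with vehicle to 93.8 and 80.9 with 1.25 and 2.5 μM XY018 and 85.6 with both compounds, while ATV left it at 105. The log2 ratios were -0.15, -0.36, -0.28 and, for ATV, 0.01, none of them past 1.5-fold.

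The enzymes of serine synthesis were all above vehicle in HCC70 with XY018 and all below it in MDA-MB468. PHGDH, which catalyses the first step (chromosome 1, 120191034 to 120286841, plus strand, GRCh37), was at 197 FPKM in HCC70 with vehicle, 241 and 260 with 1.25 and 2.5 μM XY018, 223 with ATV and 285 with both. Its MDA-MB468 levels were 453 FPKM with vehicle, 390 and 367 with XY018, 460 with ATV and 374 with both. At 2.5 μM the log2 ratios were 0.40 (0.34 to 0.47) in HCC70 and -0.30 (-0.34 to -0.27) in MDA-MB468, and none of its ratios in either line reached 1.5-fold.

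PSAT1, the aminotransferase of the second step (chromosome 9, 80912041 to 80945009, plus strand, GRCh37), had the largest difference between the lines. In HCC70 it was at 79.5 FPKM with vehicle, 111 and 116 with 1.25 and 2.5 μM XY018, 86.5 with ATV and 121 with both. The MDA-MB468 libraries had PSAT1 at 151 FPKM with vehicle, 94.4 and 73.9 with XY018, 144 with ATV and 75.7 with both. Every library with XY018 was thus above its vehicle in HCC70 and below it in MDA-MB468, with ATV alone near the vehicle in both. The log2 ratios in MDA-MB468 were -0.68 (-0.73 to -0.62) at 1.25 μM, -1.03 (-1.09 to -0.97) at 2.5 μM and -0.99 (-1.06 to -0.93) with both compounds. In HCC70 they were 0.48, 0.55 and, with both, 0.60, of which the last passed 1.5-fold.

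PSPH (chromosome 7, 56078744 to 56119297, minus strand, GRCh37) was low in HCC70, at 15.7 FPKM with vehicle, 18.3 and 19.3 with XY018, 14.7 with ATV and 17.7 with both. Between 287 and 373 fragments stood behind each of these values. The counting interval held 0 with 1.25 μM XY018 (-0.01 to 0.45), with ATV (-0.34 to 0.14) and with both compounds (-0.06 to 0.40). MDA-MB468 had far more, 219 FPKM with vehicle, 149 and 129 with XY018, 220 with ATV and 126 with both. The ratios there were -0.55 (-0.60 to -0.50), -0.76 (-0.81 to -0.71), 0.01 (-0.03 to 0.05) and -0.79 (-0.84 to -0.74). PSPH was the only gene besides PSAT1 to pass 1.5-fold in a library of MDA-MB468 with XY018.

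SHMT2 and MTHFD2 act one after the other in mitochondria but did not move alike in MDA-MB468. SHMT2 (chromosome 12, 57623356 to 57628718, plus strand, GRCh37) was at 73.6 FPKM in HCC70 with vehicle, 89.8 and 99.9 with 1.25 and 2.5 μM XY018, 79.3 with ATV and 99.5 with both. In MDA-MB468 it was at 211 FPKM with vehicle, 260 and 258 with XY018, 216 with ATV and 218 with both, so the 2 libraries with XY018 alone were the highest and the library with both compounds was near the vehicle. MTHFD2 (chromosome 2, 74413299 to 74444692, plus strand, GRCh37) was at 104 FPKM in HCC70 with vehicle, 132 at both doses of XY018, 102 with ATV and 130 with both. Its level in MDA-MB468 was 93.8 FPKM with vehicle, 83.4 and 79.7 with XY018, 96.3 with ATV and 85.8 with both. At 2.5 μM the ratios in MDA-MB468 were 0.29 (0.25 to 0.33) for SHMT2 and -0.23 (-0.28 to -0.19) for MTHFD2, and neither gene reached 1.5-fold in any library.

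SLC7A5 and SLC3A2 encode the light and heavy chains of LAT1, the exchanger that brings in leucine and other large neutral amino acids, and both were above vehicle with XY018 in both lines. SLC7A5 (chromosome 16, 87863629 to 87903113, minus strand, GRCh37) was at 150 FPKM in HCC70 with vehicle, 206 and 237 with 1.25 and 2.5 μM XY018, 189 with ATV and 258 with both. For MDA-MB468 the values were 212 FPKM with vehicle, 227 and 259 with XY018, 204 with ATV and 257 with both. The HCC70 ratios were 0.46, 0.66 (0.61 to 0.70), 0.34 and 0.78 (0.74 to 0.83), and the MDA-MB468 ratio at 2.5 μM was 0.29 (0.26 to 0.32). SLC3A2 (chromosome 11, 62623476 to 62656352, plus strand, GRCh37) was at 96.3 FPKM in HCC70 with vehicle, 118 and 139 with XY018, 103 with ATV and 136 with both. MDA-MB468 had SLC3A2 at 152 FPKM with vehicle, 174 and 190 with XY018, 157 with ATV and 204 with both. Its ratios at 2.5 μM were 0.53 (0.44 to 0.61) and 0.32 (0.26 to 0.37), both short of 1.5-fold.

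SLC7A1 encodes CAT1, a carrier of arginine and lysine, and SLC7A11 encodes xCT, which takes up cystine in exchange for glutamate and pairs with the product of SLC3A2. SLC7A1 (chromosome 13, 30083551 to 30169825, minus strand, GRCh37) was at 41.5 FPKM in HCC70 with vehicle, 51.2 and 52.8 with XY018, 50.8 with ATV and 56.9 with both. Its MDA-MB468 values were 33.0 FPKM with vehicle, 25.5 and 23.7 with XY018, 31.8 with ATV and 26.3 with both, a ratio of -0.48 (-0.55 to -0.41) at 2.5 μM. SLC7A11 (chromosome 4, 139085251 to 139163503, minus strand, GRCh37) was the scarcest transcript, at 6.57 FPKM in HCC70 with vehicle and 7.02 to 7.76 in the treated libraries. In MDA-MB468 it lay between 3.48 and 3.93 FPKM in all 5 libraries of the XY018/ATV experiment. No ratio of SLC7A1 or SLC7A11 in these 2 tables reached 1.5-fold.

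**Figure D2:**
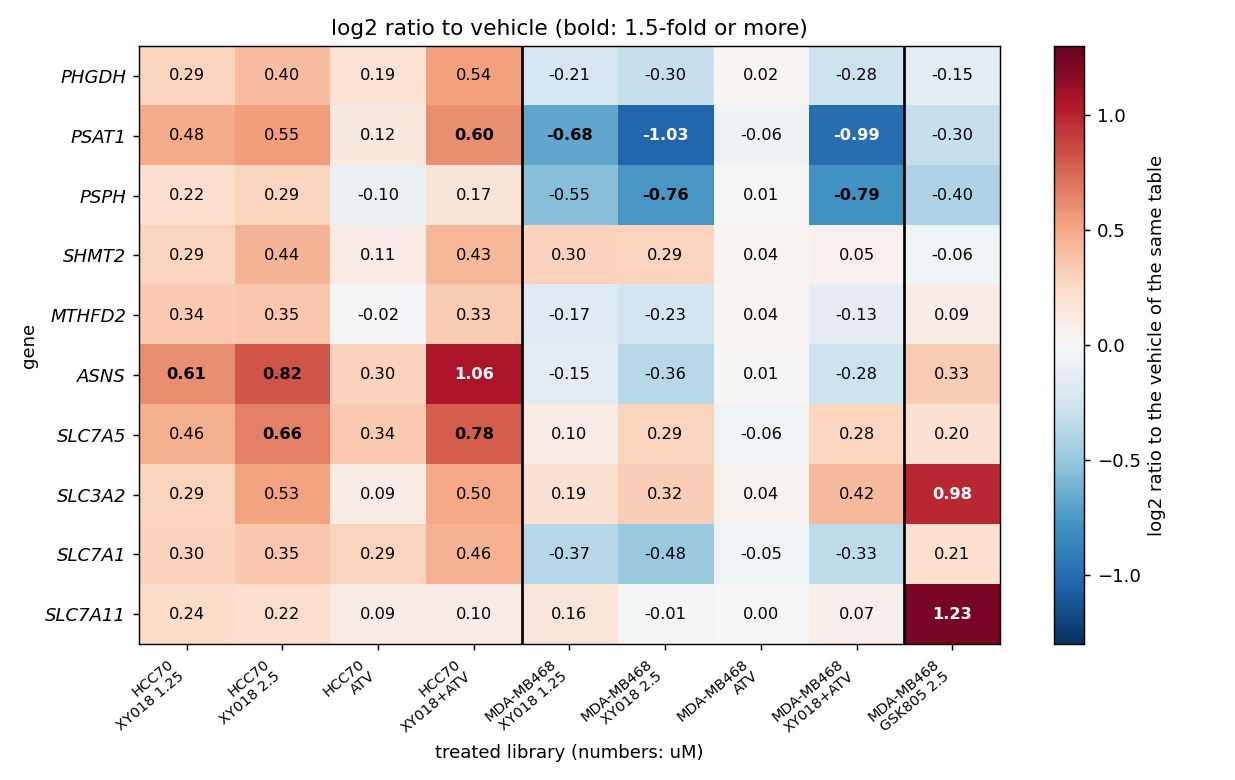
log2 ratio of each gene (rows) in each treated library (columns; numbers after the compound are μM) to the vehicle of the same table, with values at 1.5-fold or more in bold. HCC70 with XY018 is above 0 for all 10 genes, while MDA-MB468 with XY018 has PSAT1 and PSPH as the lowest values (-1.03 and -0.76 at 2.5 μM) and SLC3A2, SLC7A5 and SHMT2 above 0.

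In MDA-MB468 the group as a whole did not move in one direction with XY018. At 1.25 μM 4 of the 10 genes were above the vehicle and 6 below, where 51.1% of all genes were above. The median log2 ratio was -0.16 against 0.01 for all genes. None was higher by 1.5-fold and 1 was lower (PSAT1), where 9.73% of all 11844 genes were higher and 8.38% lower. At 2.5 μM 3 were above and 7 below, where 50.1% of all genes were above. The median was -0.27 against 0.00 for all genes. Here 0 were higher and 2 were lower, with 14.1% of all genes higher and 14.5% lower, and 2 of 10 is close to this background. The counting intervals excluded 0 for 9 of the 10 genes at this dose and held it for SLC7A11. Their median half-width was 0.053, where the SD of the log2 ratios of all genes was 0.67.

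The sign differed between the lines for 6 of the 10 genes. ASNS, PHGDH, PSAT1, PSPH, MTHFD2 and SLC7A1 were above the vehicle in all 3 HCC70 libraries that held XY018 and below it in all 3 MDA-MB468 libraries, a pattern that 8.67% of the 10749 genes compared in all 6 libraries had. At 2.5 μM the log2 ratio in HCC70 minus that in MDA-MB468 was 1.58 for PSAT1, 1.17 for ASNS, 1.05 for PSPH, 0.83 for SLC7A1, 0.71 for PHGDH and 0.58 for MTHFD2. All 10 genes were above vehicle in these HCC70 libraries, so the MDA-MB468 values alone set which genes are among the 6. In MDA-MB468 51.1, 50.1 and 50.4% of all genes were above vehicle with 1.25 μM XY018, 2.5 μM XY018 and both compounds. The 3 libraries of a line share its vehicle and are not independent of each other. SLC3A2, SLC7A5 and SHMT2 were above vehicle in all of these libraries.

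**Figure D3:**
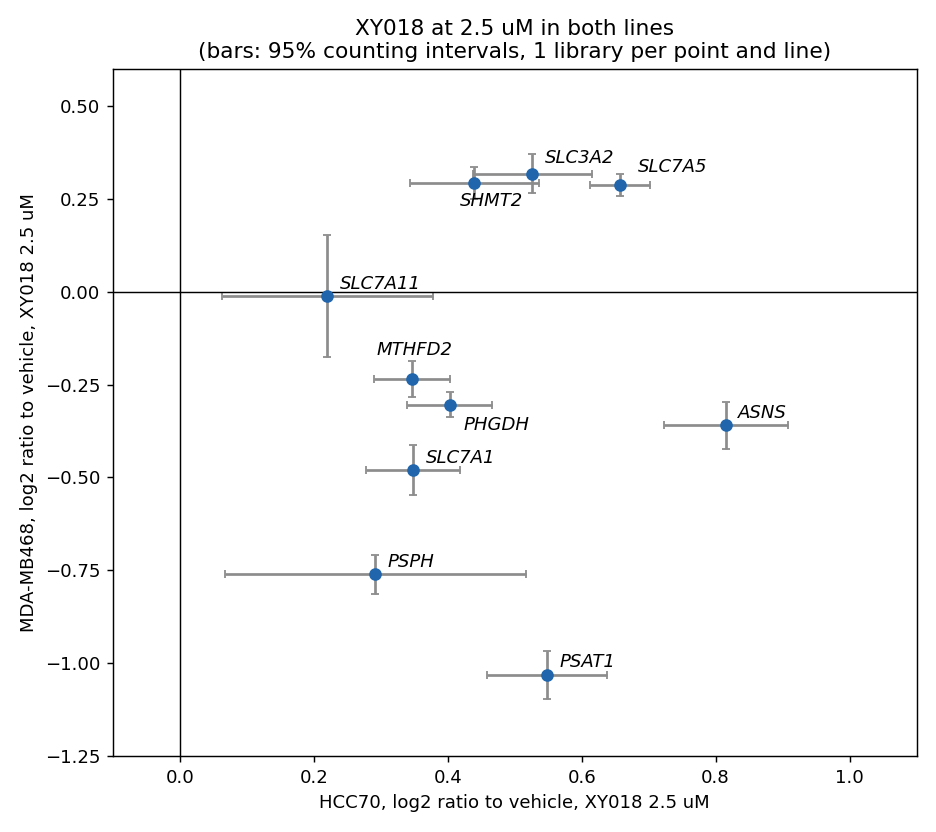
log2 ratio to vehicle with 2.5 μM XY018 in HCC70 (x axis) and MDA-MB468 (y axis), 1 point per gene, with 95% counting intervals as bars. All points lie right of 0, from 0.22 for SLC7A11 to 0.82 for ASNS, whereas on the y axis SLC3A2, SLC7A5 and SHMT2 lie above 0, SLC7A11 at 0 within its interval, and the other 6 below.

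With ATV alone the group stayed at the vehicle level in MDA-MB468 and slightly above it in HCC70. In HCC70 8 of the 10 genes were above the vehicle (48.8% of all genes were), with a median of 0.11 against -0.01 for all genes, and the highest was SLC7A5 at 0.34 (0.29 to 0.38), followed by ASNS and SLC7A1. None passed 1.5-fold in either direction, where 2.22% of all genes were higher and 1.32% lower. In MDA-MB468 the 10 ratios lay between -0.06 and 0.04 with a median of 0.01, and the counting interval held 0 for 8 of them. None was higher or lower by 1.5-fold, with 1.37% of all genes higher and 0.803% lower.

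With both compounds in HCC70 all 10 genes were above the vehicle, where 47.9% of all genes were. The counting interval lay above 0 for 8 of the 10. The median was 0.48, against -0.01 for all genes. By the 1.5-fold rule 3 were higher (ASNS, SLC7A5 and PSAT1) and 0 lower, where 4.38% of all genes were higher and 2.93% lower. In MDA-MB468 the median was -0.20 against 0.00 for all genes, with 0 genes higher and 2 lower (PSAT1 and PSPH), where 13.1% of all genes were higher and 12.2% lower.

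**Figure D4:**
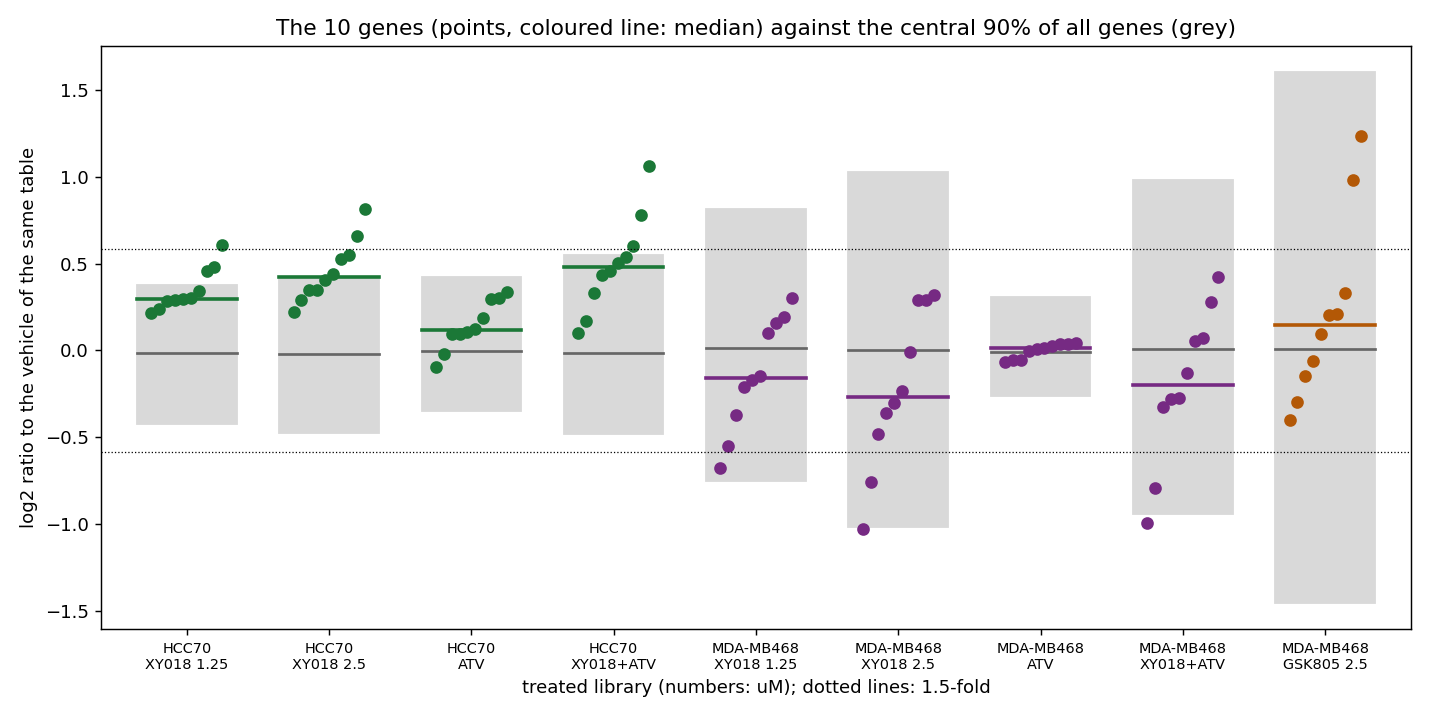
log2 ratios to vehicle (y axis) in the 9 treated libraries (x axis); points are the 10 genes in order of their ratio, the coloured line their median, the grey box the central 90% of all genes compared and the grey line their median. In HCC70 with XY018 the genes sit in the upper part of the box or above it, with medians of 0.30, 0.42 and 0.48, while in MDA-MB468 with ATV all 10 lie between -0.06 and 0.04.

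Setting treated libraries against each other leaves the vehicle out. In HCC70, both compounds against XY018 alone at 1.25 μM gave a median of 0.15 over the 10 genes, from -0.14 for SLC7A11 to 0.46 (0.37 to 0.54) for ASNS, and the median of all genes was -0.01. Both compounds against ATV alone gave 0.35, from 0.00 for SLC7A11 to 0.76 (0.68 to 0.84) for ASNS, which was the 1 gene past 1.5-fold higher, where 2.73% of all genes were. In MDA-MB468, both against XY018 alone gave -0.08, from -0.32 (-0.39 to -0.25) for PSAT1 to 0.23 (0.18 to 0.28) for SLC3A2. SHMT2 was at -0.25 (-0.29 to -0.21) there. Both against ATV alone gave -0.22, with 2 genes lower by 1.5-fold, PSAT1 at -0.93 and PSPH at -0.80, where 11.1% of all genes were lower. The step from 1.25 to 2.5 μM XY018 had a median of 0.09 in HCC70, where ASNS, SLC3A2 and SLC7A5 were at 0.21, 0.24 and 0.20, and of -0.10 in MDA-MB468, where PSAT1 was at -0.35 (-0.42 to -0.28) and SLC7A5 at 0.19 (0.16 to 0.22). The SD over all genes of the same step was 0.26 in HCC70 and 0.25 in MDA-MB468, and all 10 genes differed between doses by less than this in HCC70, as did 9 in MDA-MB468.

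With GSK805 the number of genes past 1.5-fold was close to the share over all entries, and those past it were SLC3A2 and SLC7A11. SLC3A2 was at 356 FPKM with vehicle and 704 with GSK805, and SLC7A11 at 1.80 and 4.37, ratios of 0.98 (0.93 to 1.03) and 1.23 (0.95 to 1.52). An estimated 144 and 355 fragments stood behind the values of SLC7A11. These 2 genes were higher by 1.5-fold and 0 were lower, where 17.6% of all 19951 entries compared were higher and 16.6% lower. Of the other members, ASNS went from 58.9 to 74.0 FPKM, SLC7A5 from 136 to 156, SLC7A1 from 20.9 to 24.2 and MTHFD2 from 147 to 157. PSPH went from 303 to 229 FPKM, PSAT1 from 124 to 100.4, PHGDH from 446 to 402 and SHMT2 from 360 to 345. The median over the 10 genes was 0.15, against 0.01 for all entries. At the same dose and time XY018 and GSK805 placed 5 of the 10 genes on the same side of their vehicles, among them PSAT1 (-1.03 and -0.30) and PSPH (-0.76 and -0.40), and 5 on opposite sides, among them ASNS (-0.36 and 0.33) and SLC7A1 (-0.48 and 0.21). With XY018 50.1% of all genes were above vehicle, and with GSK805 50.5% of all entries. The share of all genes on the same side with both was not computed. The 5 and 5 therefore cannot be read as likeness or difference of the antagonists. The antagonists were run with separate vehicles and tables, so the difference between them cannot be told apart from that between the experiments. Against the vehicle of the XY018/ATV experiment SLC7A11 was at 0.31 and not past 1.5-fold, PSAT1 was at -0.59 and past it, SHMT2 and MTHFD2 were at 0.71 and 0.75, and SLC3A2 was at 2.21.

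The GSK805 table has a wider annotation that lists near-identical copies of some of the genes. PSPHP1, a pseudogene of PSPH, was at 369 FPKM with vehicle and 302 with GSK805, above PSPH itself, and SLC7A5P2 was at 41.8 and 37.4, PSAT1P3 at 35.1 and 32.7 and MTHFD2P7 at 26.2 and 29.1. Reads of these copies may be shared with the genes, so the levels of PSPH, PSAT1, MTHFD2 and SLC7A5 in this table are uncertain. For the HCC70 and XY018/ATV libraries no such copies were listed. Whether reads of the copies were counted in the genes there was not tested. The level of PSPH in MDA-MB468 and its ratios with XY018 carry the same doubt. The strand setting of the counting is not given in the sources used here. SLC7A11-AS1, antisense to SLC7A11, was at 0.00 FPKM with vehicle and 0.08 with GSK805.

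Some regulators and targets of the stress response were higher with XY018 in each line. Of 19 listed, 3, 6 and 9 were higher by 1.5-fold in HCC70 with 1.25 μM XY018, 2.5 μM XY018 and both compounds, and 0 were lower, where 1.93, 2.62 and 4.38% of all genes were higher. The 6 at 2.5 μM were DDIT4 (log2 ratio 1.00), SESN2 (0.99), CHAC1 (0.97), STC2 (0.89), DDIT3 (0.88) and VLDLR (0.84). In MDA-MB468 6, 7 and 7 were higher, where 9.73, 14.1 and 13.1% of all genes were. There 1, 2 and 0 were lower, where 8.38, 14.5 and 12.2% of all genes were. The 7 higher at 2.5 μM were ATF3 (2.60), PPP1R15A (2.52), DDIT3 (2.30), EIF2AK3 (1.51), TRIB3 (0.87), DDIT4 (0.80) and CEBPG (0.63), and the 2 lower were EIF2AK2 (-0.71) and ATF5 (-0.60). SESN2, CHAC1, STC2 and VLDLR had ratios of 0.25, -0.16, 0.19 and -0.31 there. With ATV alone 2 of the 19 were higher in HCC70 and 0 in MDA-MB468, where 2.22 and 1.37% of all genes were. With GSK805 4 were higher, where 17.6% of all entries were. DDIT3, which encodes the stress-induced factor CHOP, was at 8.38 FPKM in HCC70 with vehicle, 13.2 and 15.5 with XY018, 12.7 with ATV and 18.8 with both. In MDA-MB468 DDIT3 was at 17.5 FPKM with vehicle, 67.7 and 86.7 with XY018, 18.5 with ATV and 104 with both, and in the GSK805 pair at 13.1 and 40.7. CHAC1, a glutathione-degrading enzyme and ATF4 target, was at 9.28, 13.6, 18.3, 12.4 and 19.7 FPKM in HCC70 with vehicle, 1.25 and 2.5 μM XY018, ATV and both, and at 16.4, 16.4, 14.7, 15.1 and 14.0 FPKM in MDA-MB468 in the same order. TRIB3, a pseudokinase induced by ATF4 and CHOP, had ratios at 2.5 μM of 0.45 in HCC70 and 0.87 in MDA-MB468. The mRNA of ATF4 was at 295 FPKM in HCC70 with vehicle and 355, 362 and 365 with 1.25 μM, 2.5 μM and both, and in MDA-MB468 at 725 and then 609, 644 and 650. Its ratios were 0.27 to 0.30 in HCC70 and -0.25 to -0.16 in MDA-MB468.

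The wider pathways were looked at in 3 further lists, and their counts at 2.5 μM stand beside 2.62% of all genes higher and 3.26% lower in HCC70 and 14.1% higher and 14.5% lower in MDA-MB468. Of 20 other enzymes of serine, glycine and one-carbon metabolism, 17 passed the filter in HCC70 with 2.5 μM XY018, with 1 higher, 0 lower and a median of -0.03. The gene higher was MTHFD1L (log2 ratio 0.65), which makes formate in mitochondria. In MDA-MB468 at this dose 18 passed, with 1 higher (AMT at 0.87, from 0.54 to 1.07 FPKM), 4 lower and a median of -0.41. AMT passed the filter only through its treated library and so could not have been counted as lower. TYMS, the thymidylate synthase that uses one-carbon units for DNA synthesis, went from 107 to 49.4 FPKM in MDA-MB468 (log2 ratio -1.12), and SFXN1, a mitochondrial serine carrier, from 60.7 to 30.8 FPKM with GSK805. Of 16 other amino acid synthesis enzymes, 15 passed in HCC70 with 2 higher and 0 lower, and 14 in MDA-MB468 with 1 higher and 1 lower. CBS and CTH, the enzymes that turn homocysteine into cysteine, were those higher in HCC70, at 0.77 and 0.74, and their ratios in MDA-MB468 were -0.58 and 0.26. ALDH18A1 of proline synthesis was higher in MDA-MB468, at 1.04, and PYCRL of the same pathway lower, at -0.76. With GSK805, ASL of the urea cycle went from 76.3 to 24.7 FPKM and CTH, which makes cysteine from cystathionine, from 5.26 to 11.8. Of 28 other amino acid transporters, 18 passed in HCC70 with 1 higher, 2 lower and a median of 0.06, and 17 passed in MDA-MB468 with 0 higher, 7 lower and a median of -0.49. Those past 1.5-fold in HCC70 were SLC7A7 (0.89), SLC6A14 (-1.22) and SLC7A8 (-0.66). The glutamate carrier SLC1A3 went from 55.5 FPKM with vehicle to 11.2 with both compounds in MDA-MB468, and SLC6A14, a carrier of neutral and basic amino acids, from 5.66 to 1.37 FPKM with 2.5 μM XY018. In HCC70 the 3 lists therefore had medians at 2.5 μM XY018 of -0.03 to 0.06, where the 10 genes had 0.42. A rise was not particular to the 10 genes. The 19 genes of the stress response list had a median of 0.29 in the same library, with 16 above vehicle.

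Other transcripts changed in the same libraries. KRT5, a basal keratin, was at 660, 408, 355, 568 and 315 FPKM in HCC70 with vehicle, 1.25 and 2.5 μM XY018, ATV and both, and in the same order at 112, 55.0, 40.3, 137 and 80.8 in MDA-MB468, and KRT8 went from 967 to 422 FPKM with GSK805. The 8 basal-like and epithelial markers summed to 1891 FPKM in HCC70 with vehicle and 1185 to 1646 in the treated libraries, to 2894 and 1853 to 2720 in MDA-MB468, and to 2911 and 2084 in the GSK805 pair. The markers of other cells that each table lists (5 of 7 for HCC70) summed to 81.3 FPKM in HCC70 with vehicle and 87.6 to 104 in the treated libraries, nearly all of it CD68. In MDA-MB468 the sum was 10.2 FPKM with vehicle, 9.89 with ATV and 21.1 to 25.7 in the libraries with XY018, and in the GSK805 pair 16.6 and 30.2. CD68 went from 4.42 to 16.4 FPKM with 2.5 μM XY018 in MDA-MB468 and COL1A1 from 4.96 to 8.49 with both compounds, while CD3E and DCN stayed at or near 0. The part of these changes in the ratios of the 10 genes was not tested. In bulk RNA, fewer cells of a type and less RNA per cell cannot be told apart.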

How the data were processed

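RNA-seq of 12 libraries of HCC70 and MDA-MB468 cells was analysed. The authors prepared TruSeq libraries, mapped the reads to GRCh37 (hg19) and quantified genes; BWA, Bowtie and Cufflinks are listed in the submitters' processing notes, without versions. The deposited values were read as FPKM, which the authors normalized separately in the 3 tables. No unit stands in the headers, and column sums and value ranges fit FPKM from Cufflinks.

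The 10 genes, the gene lists, the motifs and the thresholds were chosen with earlier results of these data known. Treated libraries were compared with the vehicle of their own table as log2 ratios with a pseudocount of 0.1, for genes that reached 1 FPKM in the treated or the vehicle library, with 1 entry per symbol. Genes past 1.5-fold were counted beside all genes compared. No test was run.

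The named genes are the 10 genes, ATF4, DDIT3, TRIB3 and CHAC1, the 2 genes of each other list with the largest absolute ratio at 5 FPKM or above, copies of the 10 genes, and the 5 genes with the closest profile. Other marker genes come from a list, and other genes named from the lists because they passed 1.5-fold were chosen after their values were seen. Some genes that this rule or these lists name are not reported here.

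Depth was inferred from the step between low FPKM values of genes with a single annotated transcript. The offset to transcript length was 0 nt for the RefSeq tables and 200 nt for the GSK805 table. Depth gave fragments per gene and the widths of the 95% exact Clopper-Pearson intervals. Fold calculation and depth estimate were tested on simulated data. Gene positions are from GENCODE annotation mapped to GRCh37. Start-site sequences are from RefSeq (GRCh38.p14). The alternatives were pseudocounts of 1 and 0.01, rescaled libraries, no filter, a filter at 5 FPKM, a threshold of 2-fold and the other MDA-MB468 vehicle for GSK805. Each of the 10 genes has 1 entry per table, so keeping every entry changes nothing. Scripts ran in Python 3.11.15 with scipy 1.17.1, pandas 2.3.3, numpy 2.4.6 and, for plots, matplotlib 3.10.9.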

Additional observations from a re-analysis of the deposited data

Results flagged for a closer look

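For 6 genes all 3 HCC70 libraries with XY018 lay above their vehicle and all 3 MDA-MB468 libraries with XY018 below theirs. Of the 10749 genes compared in these libraries 8.67% did so. All 10 genes were above vehicle in these HCC70 libraries, so the MDA-MB468 values alone set which genes are among the 6. In the MDA-MB468 libraries 51.1, 50.1 and 50.4% of all genes were above vehicle. The 8.67% is therefore no measure of how unusual 6 of 10 is. The difference between the lines was not tested, since each condition has 1 library and the 3 libraries of a line share its vehicle. At 2.5 μM the log2 ratio in HCC70 minus that in MDA-MB468 was 1.17 for ASNS, 0.71 for PHGDH, 1.58 for PSAT1, 1.05 for PSPH, 0.58 for MTHFD2 and 0.83 for SLC7A1. For PSPH the HCC70 ratio of 0.29 rests on 297 and 373 estimated fragments, and its counting interval ran from 0.07 to 0.52. The PSPH intervals in HCC70 with 1.25 μM XY018 and with both compounds held 0.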

How the results depend on the processing

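The median of the 10 genes moved by more than its members' typical counting interval in 2 of 46 recalculations. With a filter at 5 FPKM, which leaves out SLC7A11, it was -0.28 in MDA-MB468 with both compounds in place of -0.20. For GSK805 against the vehicle of the XY018 and ATV table it was -0.052 in place of 0.15, which changes its sign, and 1 gene was lower. The 5 FPKM filter left 1 gene higher with GSK805. At a threshold of 2-fold the number of genes higher was 0 and 0 in HCC70 with 1.25 and 2.5 μM XY018, 1 with both compounds and 1 with GSK805, and the number lower in MDA-MB468 was 0, 1 and 0 with 1.25 μM, 2.5 μM and both. The shares of all genes at the 2-fold threshold, at the 5 FPKM filter and against the other vehicle are not given here. The counts at these settings therefore cannot be set against a background. All other counts were within 1.5 times the reported ones. The 18 recalculations of the dose step and of the combination, chosen after seeing the data, changed no median beyond counting error. Rescaling each library moved none of 90 single-gene ratios beyond its interval, and a pseudocount of 1 moved 1 of 90, SLC7A11 with GSK805 (0.94). Against the other vehicle 9 of 10 GSK805 ratios moved, among them SLC7A11 (0.31), SHMT2 (0.71) and MTHFD2 (0.75). Among genes in all 3 tables, a restriction also chosen after seeing the data, 13.4% were higher and 12.5% lower with GSK805. No paired analysis was possible because the conditions compared within a line have 1 library each, and a fit pairing the treatments by line was not run. The lack of replicates, not depth, limits what can be said of the genes above 20 FPKM. For SLC7A11, with 144 to 725 estimated fragments, and for PSPH in HCC70, with 287 to 373, counting error adds to it.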

Other observations

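Targets of NRF2, the factor of the oxidative stress response that shares SLC7A11 as a target with ATF4, were counted in both lines. Of 11 listed, 0 were higher by 1.5-fold in any HCC70 library and 1, OSGIN1, was lower in one of them (-0.84 with 1.25 μM XY018), while 2, 5 and 5 were higher in MDA-MB468 with 1.25 μM XY018, 2.5 μM XY018 and both compounds, and 4 with GSK805. Of all genes, 1.93 to 4.38% were higher in the HCC70 libraries and 9.73, 14.1, 13.1 and 17.6% in these MDA-MB468 libraries in that order, and with ATV alone in MDA-MB468 none of the 11 was higher. GCLC, which encodes the catalytic subunit of the rate-limiting enzyme of glutathione synthesis, was at 22.9 FPKM in MDA-MB468 with vehicle and 92.8 with both compounds, and SRXN1, which repairs oxidized peroxiredoxins, at 30.3 and 76.7. The difference between the lines was not tested. SLC7A11 was at 3.51 and 3.69 FPKM in the same libraries.

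Among 7127 genes with 5 FPKM or more in each vehicle library, the 5 outside the group whose 9 log2 ratios lay closest to the mean of the 10 genes were RAPGEF1, RAB11FIP1, RERE, PHC2 and CBLC, with root mean square differences of 0.09, 0.09, 0.11, 0.11 and 0.11. The 10 genes themselves lay between 0.10 (MTHFD2) and 0.46 (PSAT1) from that mean. The 5 were picked as the closest of all genes searched. Their distances therefore cannot be set against those of the 10 to judge how alike the group is.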
